A study of Mus musculus with 14 samples.

Results

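Undifferentiated mouse embryonic stem cells (ESCs) of clones in which both Foxa2 alleles were disrupted (d0ko) were compared with clones that kept 1 intact allele (d0con), using the 4 day 0 libraries of the 14 RNA sequencing libraries in the series. Members were chosen by title, d0.homo for d0ko and d0.het for d0con, and the whole transcriptome of these 4 libraries was examined. The comparison asks how the clones and the genotypes differ before Foxa2, the transcription factor that drives endoderm formation, is normally switched on.

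The d0con cells had the genotype Foxa2-Venus-KO/+ (clone C59 for replicate 1 and clone C63 for replicate 2), and the d0ko cells had Foxa2-Venus-KO/Foxa2-Venus-KO (clone C9 for replicate 1 and clone C17 for replicate 2). All 4 clones were derived from 1 parental ESC line (IDG3.2) with a Cas9 nickase and G418 selection. In the targeted allele a nuclear Venus reporter with a neomycin cassette takes the place of the Foxa2 coding region, so the controls carry 1 such allele as well. Each group holds 2 clones and each clone 1 day 0 library, so an effect of genotype and a difference between these clones cannot be told apart, and p-values measure the spread between clones. The cells were plated without LIF, the cytokine that sustains ESC self-renewal, on red-fluorescent mitomycin-treated embryonic fibroblasts, and Cherry-negative cells were sorted the next day. The same clones were also sequenced at day 3 of endoderm differentiation as Venus-positive cells (d3con and d3ko, 3 libraries each), after growth on Wnt3a-secreting feeders with 12 ng/ml Activin A. A doxycycline-inducible line that is not derived from these clones makes up the remaining 4 libraries.

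ESCs sustain themselves through a network of transcription factors around Pou5f1, Sox2 and Nanog, and naive factors such as Esrrb, Klf4 and Zfp42 are lost first on differentiation. Cultured ESC clones can also come to differ from one another without any designed edit, by loss of a sex chromosome, gain of a chromosome or altered expression of imprinted genes. Imprinted genes are expressed from the maternal or the paternal allele only, and their promoters or control regions are marked by DNA methylation.

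The day 0 libraries held 18233032 to 25349918 expected counts (reads per gene as RSEM estimates them), and the 10 genes with most counts took 5.36% to 5.64% of each. Pou5f1 lay between 1335.26 and 1467.3 TPM (transcript abundance scaled for gene length and library total) in the 4 libraries, and Dppa5a, an ESC-enriched RNA-binding protein gene, between 11377.35 and 13309.91 TPM. The endoderm markers Gata4 and Hhex did not exceed 1.24 and 5.33 TPM, so the libraries carried the markers of the labelled cell type. Foxa2 (chromosome 2, 148042877 to 148046969, GRCm38) had 3 reads in C59, 3 in C63, 2 in C9 and 3 in C17, or 0.07 to 0.14 TPM. At this depth no difference in Foxa2 was detectable at day 0 and its level could not check the genotype labels. At day 3 it stood at 34.81 to 58.64 TPM in the d3con libraries and 0.11 to 0.19 TPM in d3ko. Clone C17 stood apart in having the most fibroblast marker RNA and the least Y-linked RNA, both described in detail further on, so the main counts are also given without it. Of the 22 neighbours of Foxa2 within 1000000 bases 5 were tested, with a median log2 fold change of 0.12. Thbd, encoding thrombomodulin, was the 1 of these 5 with an unadjusted edgeR p under 0.05, against 11.1% of all genes (edgeR adjusted p = 0.425, log2 fold change 1.17, SE 0.43). It was low, at 0.63 and 0.52 TPM in C59 and C63, 0.89 TPM in C9 and 1.81 TPM in C17.

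The Dlk1 to Dio3 imprinted locus held the lowest fold changes of the 12408 genes tested, which ranged from -5.34 to 4.78 on the log2 scale. Meg3, Rian and Mirg are long noncoding RNAs transcribed from the maternal copy of this locus on chromosome 12, Rian and Mirg being hosts of small nucleolar RNAs and microRNAs, whereas Dlk1, Rtl1 and Dio3 are protein-coding genes expressed from the paternal copy. Because Meg3 lies at the head of this transcription unit, the sequence around its start (RefSeq, GRCm38.p6, chr12:109540746-109541045, plus strand) is printed here with its CG dinucleotides, the sites of DNA methylation, in capitals. The start of Mest, an imprinted gene on chromosome 6 that set 1 control clone apart as described further on, is shown beside it (chr6:30737800-30738099, plus strand). Each window spans the transcription start, which lies near its right end, and for genes with several starts the window with most CG was taken.

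Meg3: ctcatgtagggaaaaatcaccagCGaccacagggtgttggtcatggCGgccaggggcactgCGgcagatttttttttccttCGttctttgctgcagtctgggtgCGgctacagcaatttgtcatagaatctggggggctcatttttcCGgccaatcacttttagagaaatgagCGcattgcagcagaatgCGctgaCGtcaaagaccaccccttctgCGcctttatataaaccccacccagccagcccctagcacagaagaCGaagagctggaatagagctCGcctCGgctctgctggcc

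Mest: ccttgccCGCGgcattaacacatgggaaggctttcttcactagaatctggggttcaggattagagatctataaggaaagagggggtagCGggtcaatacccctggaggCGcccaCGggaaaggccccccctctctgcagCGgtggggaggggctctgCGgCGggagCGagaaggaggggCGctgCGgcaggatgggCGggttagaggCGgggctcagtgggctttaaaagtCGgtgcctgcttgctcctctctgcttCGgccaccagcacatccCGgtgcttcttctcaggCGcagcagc

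The Meg3 window held 13 CG and the Mest window 17, against a median of 7 over 32851 promoter windows, of which 37.9% held at least 13 and 31.4% at least 17. No methylation was measured in these libraries.

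Meg3 (109540996 to 109571729) stood at 35.95 TPM in C59 and 43.96 TPM in C63, against 0.31 TPM in C9 and 2.21 TPM in C17. Both control clones were therefore well above both knockout clones, and C17 read higher than C9. The log2 fold change was -5.13 (SE 0.55). Its edgeR adjusted p of 0.398 missed the threshold, while DESeq2 gave an adjusted p of 0.00256 and edgeR without a filter on low counts gave 0.00029. The DESeq2 call was lost without C59 (adjusted p = 0.422) and without C63 (0.307).

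Rian (109603945 to 109661716) showed 3.81 and 4.63 TPM in the controls and 0.02 and 0.2 TPM in C9 and C17, the latter from 1 and 9 reads. The log2 fold change was -5.34, with an SE of 0.61 and adjusted p-values of 0.398 in edgeR and 3.2e-13 in DESeq2. Without C59 or without C63 Rian fell under the filter, so its DESeq2 call could not be checked there. Mirg (109734981 to 109749458) had 16 and 37 reads in the controls, 0 in C9 and 1 in C17, which was too few to pass the filter. In the edgeR fit without a filter its adjusted p was 0.0483. All 3 noncoding RNAs of the locus were thus lower in both knockout clones.

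The coding genes of the locus were all low. Rtl1, a retrotransposon-derived gene, was found at 0.09 and 0.17 TPM in the controls and listed at 0 in both knockout clones. Dlk1, a Notch ligand homologue, lay at 0.56 and 0.26 TPM in the controls and 0.18 and 0.19 TPM in the knockouts. Dio3, which inactivates thyroid hormone, had the opposite order, with 0.61 and 0.42 TPM in the controls and 1.03 and 1.57 TPM in the knockouts (edgeR adjusted p = 0.418, log2 fold change 1.27, SE 0.45). Of the 6 genes 3 passed the filter, 2 lower and 1 higher at an unadjusted edgeR p under 0.05, against 5.34% and 5.76% of all genes. Rian passed the filter only through the control clones and Dio3 only through the knockout clones. Each was thus tested only because of the group where it read higher.

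The pattern was also present in the day 3 libraries, which the day 0 comparison did not use. There Meg3 stood at 145.37, 87.84 and 153.91 TPM in d3con and 2.01, 0.98 and 0.07 TPM in d3ko, a log2 fold change of -7.2 (edgeR adjusted p = 0.00726 in the fit of 10 libraries). Rian was at 7.94 to 15.41 TPM in d3con and at most 0.06 TPM in d3ko, and Mirg was listed at 0 in every d3ko library. In the other ESC line, in cells sorted as Venus-negative after doxycycline, Meg3 read 127.93 and 163.33 TPM. Since the day 3 libraries come from the same clones, they repeat the measurement and add no clones.

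**Figure D1:**
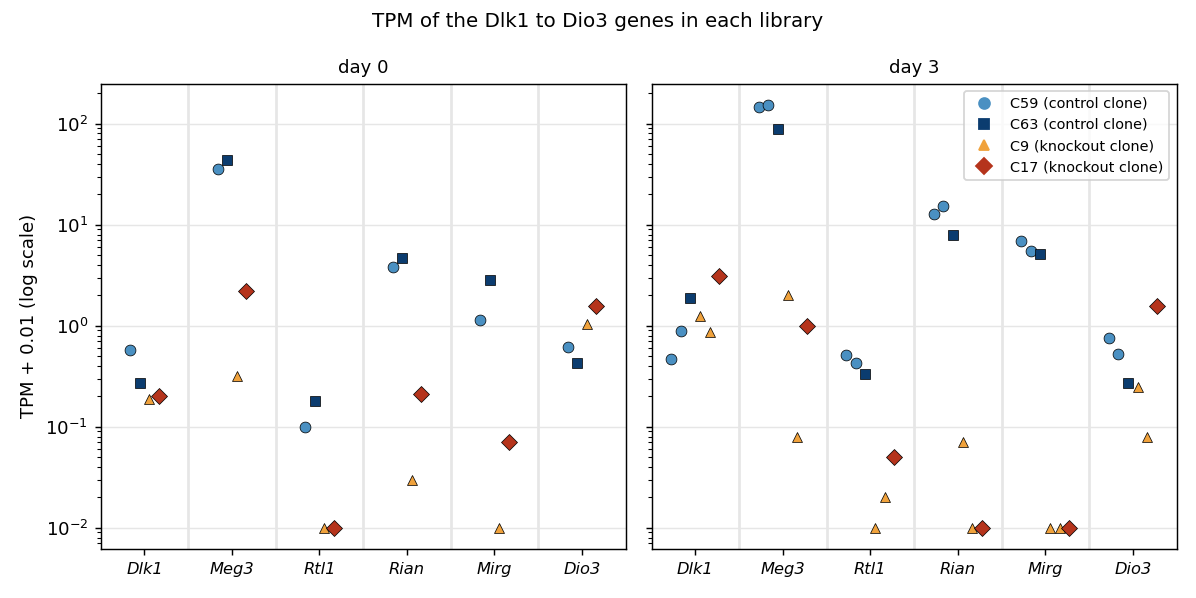
TPM of the 6 genes of the Dlk1 to Dio3 locus, with 0.01 added, on a log axis, at day 0 (left, 1 library a clone) and day 3 (right, 2 libraries for C59 and C9). Meg3, Rian and Mirg of the control clones lay above every knockout library on both days.

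edgeR's quasi-likelihood F test called 0 of 12408 genes higher and 0 lower in d0ko (adjusted p under 0.05 and more than 2-fold, percent called 0), and the smallest adjusted p was 0.398. At an unadjusted p under 0.05, 715 genes were higher (5.76%) and 662 lower (5.34%), together 11.1% of the genes. Groups lay apart in TPM at more than 2-fold in 212 genes on the higher side (1.71%) and 17 on the lower side (0.137%). DESeq2 on the same counts called 27 genes higher (0.218% of those tested) and 5 lower (0.0403%), and all 32 had an unadjusted edgeR p under 0.05. On simulated counts of these 4 libraries with 200 genes changed 4-fold, edgeR recovered 94.5% with 12 false calls and DESeq2 92.5% with 8. The 200 planted changes ease the adjustment, so this checks the scripts and not what edgeR could find in the real libraries. There edgeR did not call Meg3, with a log2 fold change of -5.13. edgeR without a filter called 16 genes, 11 of them among the 32. Without C17 DESeq2 called 1 gene higher, Col1a1, and 2 lower, Meg3 and Rian, with the spread then taken from the 2 control clones alone.

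The 5 genes that DESeq2 found lower were Meg3, Rian, Nkx6-2, Akr1b3 and Cntfr. Nkx6-2, a homeobox transcription factor gene, stood at 28.17 and 22.59 TPM in the control clones and 9.53 and 9.79 TPM in the knockout clones. The spread within each genotype was small beside the gap, with a log2 fold change of -1.37, an SE of 0.16, and adjusted p-values of 0.398 in edgeR and 8.72e-06 in DESeq2. Akr1b3, encoding aldose reductase, read 11.95 and 15.31 TPM in the controls and 6.93 and 6.19 TPM in the knockouts (log2 fold change -1.1, SE 0.21, DESeq2 adjusted p = 0.0445). Cntfr, a receptor subunit for ciliary neurotrophic factor, read 12.4 TPM in C59 but 3.34 TPM in C63, against 1.99 and 1.53 TPM in the knockouts, so 1 control clone carried most of that difference. Nkx6-3, Myo1g and Pou4f2, also picked for small p-values among lower genes, had DESeq2 adjusted p-values of 0.0746, 0.145 and 0.266. Gdf1, a Tgf-beta family ligand, read 10.13 and 9.5 TPM in the controls and 5.18 and 4.49 TPM in the knockouts (log2 fold change -1.09, SE 0.2, DESeq2 adjusted p = 0.0674).

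The 27 genes that DESeq2 found higher included the collagen genes Col5a1, Col6a1 and Col12a1, the small proteoglycan Dcn, the matrix protein Postn, the latent Tgf-beta binding protein Ltbp2 and the chemokines Ccl2, Ccl7 and Cxcl5. Dcn was at 1.18 and 0.99 TPM in the controls, 4.41 TPM in C9 and 17.41 TPM in C17 (log2 fold change 3.27, SE 0.68, DESeq2 adjusted p = 7.54e-05). Ccl2 was at 6.68 and 3.16 TPM in the controls, 12.35 TPM in C9 and 31.81 TPM in C17. The knockout clones differed between themselves in these genes, as 26 of the 27 were higher in C17 than in C9, against 57.2% of all genes. The excess of C17 over C9 was at least 2-fold in 13 of the 27, against 1.91% of all genes. In C9 all 27 lay above both controls, which the choice of these genes for a higher knockout mean in part fixes. At day 3, 19 of the 27 had the higher mean in d3ko, against 48.4% of all genes, and 6 were higher in d3ko without overlap, against 12.3% of all genes. Timp3, Aldh1l1 and Bhlhe41, a transcriptional repressor gene, were lower in d3ko without overlap, where 11.1% of all genes were.

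**Figure D2:**
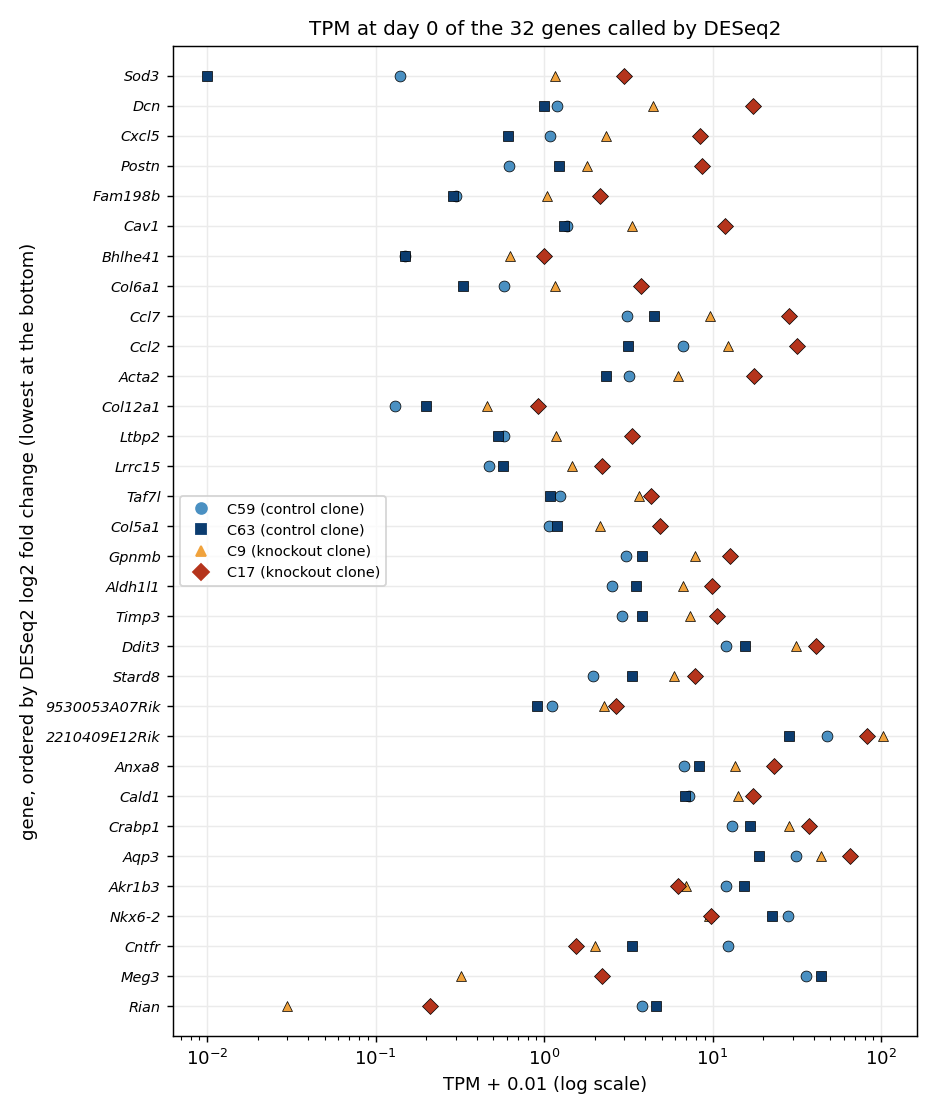
TPM at day 0, with 0.01 added, on a log axis, for the 32 genes called by DESeq2, ordered by fold change. In the 27 higher genes C17 (diamonds) lay to the right of C9 (triangles) in all but 2210409E12Rik.

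Some of the 27 genes differed less than 2-fold between the knockout clones. Ddit3, the transcription factor CHOP of the stress response, stood at 11.97 and 15.6 TPM in the controls and 31.12 and 41.11 TPM in the knockouts (log2 fold change 1.36, SE 0.23, DESeq2 adjusted p = 0.0018). Cald1, the actin-binding caldesmon, stood at 7.23 and 6.89 TPM in the controls and 14.15 and 17.31 TPM in the knockouts (1.11, SE 0.13, DESeq2 adjusted p = 8.72e-06). Taf7l, a germ-cell paralogue of a TFIID subunit, was at 1.23 and 1.07 TPM in the controls and 3.67 and 4.31 TPM in the knockouts (1.75, SE 0.29, DESeq2 adjusted p = 0.0445). Of these, Ddit3 and Taf7l were again higher in every d3ko library than in any d3con library, whereas Cald1 overlapped at day 3. For Taf7l the groups barely separated, with 0.32 TPM in the C17 library against 0.3 TPM in the C63 library. Others with a DESeq2 adjusted p under 0.05 were Timp3, a metalloproteinase inhibitor, Gpnmb, a membrane glycoprotein, Aldh1l1, a folate enzyme, Stard8, Crabp1, a retinoic acid binding protein, Aqp3, a water and glycerol channel, and Anxa8, an annexin, with log2 fold changes of 1.08 to 1.55. In each gene from Timp3 to Anxa8 C17 still read above C9, as in Gpnmb (12.74 against 7.89 TPM) and Anxa8 (23.04 against 13.51 TPM). Trim63 and Arhgdib were also higher in d0ko, with DESeq2 adjusted p-values of 0.075 and 0.107.

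Markers of the fibroblast feeders moved with the same libraries. The list holds 15 genes, and their summed level was 112 TPM in C59, 116 in C63, 148 in C9 and 319 in C17. Without Fn1, which the ESC libraries expressed at 89.73 to 133.17 TPM, the sums were 21.6, 26.2, 56.2 and 186 TPM, so C9 lay above both controls and C17 was 3.31 times C9. In C63, 2 markers (Lum and Twist2) were listed at 0, and none in the other libraries.

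Of the 11 feeder markers tested, all were higher in both knockout clones than in either control, against 28.8% of all genes, and 8 had an unadjusted edgeR p under 0.05, against 5.76% of all genes. Their median log2 fold change was 2.46, and 0 over all genes. Without C17 it was 1.16, from the same C9 and control libraries. Col1a1, a fibrillar collagen gene, read 6.01, 7.08, 16.94 and 57.59 TPM in C59, C63, C9 and C17, and Col3a1 0.87, 2.25, 6.09 and 23.08 TPM. DESeq2 called 3 of the 11 higher (Dcn, Postn and Acta2), against 0.218% of all genes. The part of feeder RNA in the higher genes and in the Meg3 reading of C17 was not tested. In bulk RNA more cells of a type and more RNA per cell cannot be told apart.

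**Figure D3:**
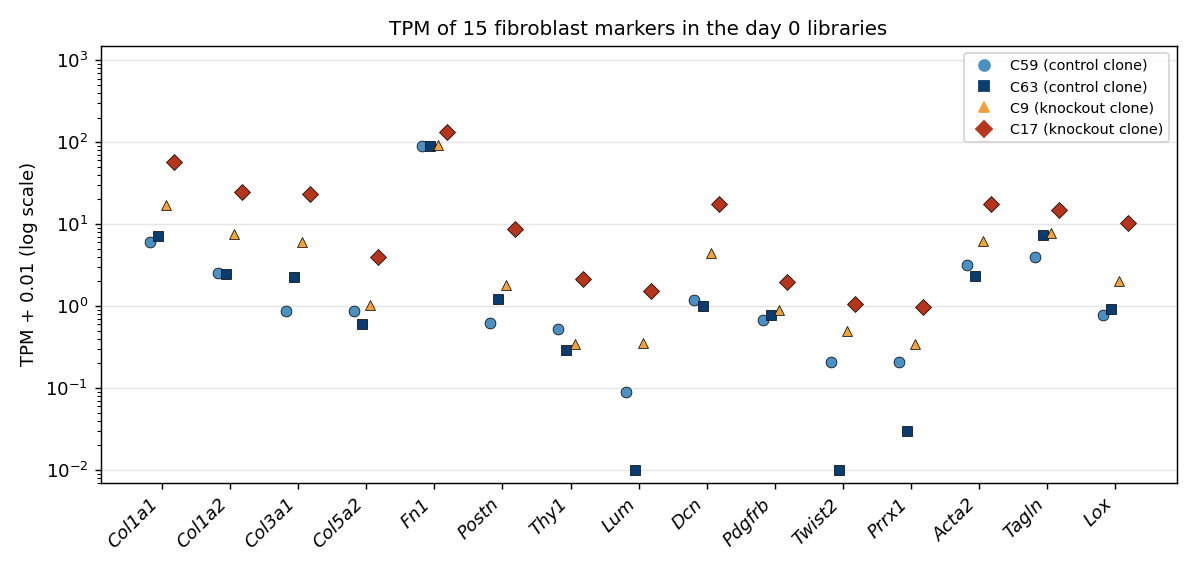
TPM of the 15 fibroblast markers, with 0.01 added, on a log axis, in the 4 day 0 libraries. C17 (diamonds) had the most of every marker, and Fn1 was the only one near 100 TPM in all 4.

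Pluripotency genes hardly separated the genotypes. The 8 core factors had a median log2 fold change of -0.01 and the 14 naive factors 0.01, and neither list held a gene called by edgeR or by DESeq2 at more than 2-fold. Sox2 stood at 79.36 and 93.99 TPM in the controls and 80.75 and 87.57 TPM in the knockouts, with overlapping groups. Klf4 overlapped too, at 17.68 and 27.12 against 27.11 and 27.93 TPM. Nanog was at 248.11 and 289.19 TPM in the controls and 334.75 and 326.81 TPM in the knockouts (edgeR adjusted p = 0.42, log2 fold change 0.26, SE 0.09). Zfp42 had a log2 fold change of 0.13 (SE 0.08) and Pou5f1 of -0.1 (SE 0.07).

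The naive list went both ways, with 4 genes higher and 4 lower without overlap, against 28.8% and 15.9% of all genes. Tbx3, a T-box factor gene, read 21.91 and 13.07 TPM in the controls and 33.54 and 24.17 TPM in the knockouts (log2 fold change 0.68, SE 0.27, DESeq2 adjusted p = 0.285). Klf5, a Krüppel-like factor of ESC self-renewal, read 383.18 and 369.06 TPM in the controls and 294.27 and 214.22 TPM in the knockouts (log2 fold change -0.6, SE 0.15, DESeq2 adjusted p = 0.0271). Nr0b1, an orphan nuclear receptor, read 305.02 and 198.62 TPM in the controls and 170.43 and 153.07 TPM in the knockouts (-0.68, SE 0.19, DESeq2 adjusted p = 0.0414). Gbx2, a homeobox gene downstream of LIF, followed with 54.4 and 29.52 TPM against 23.15 and 21.99 TPM (-0.94, SE 0.27, DESeq2 adjusted p = 0.0469). Socs3, the feedback inhibitor of the LIF pathway, read 73.64 and 101.6 TPM in the controls and 64.02 and 62.85 TPM in the knockouts (-0.51, SE 0.15, DESeq2 adjusted p = 0.153). The 8 LIF response genes had a median log2 fold change of -0.19. These shifts stayed under 2-fold, the size the study required of a change.

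In the Bmp and Nodal list 3 of 9 genes had an unadjusted edgeR p under 0.05, all lower, against 5.34% of all genes. Id1, a target of Bmp signalling, was at 235.48 and 179.71 TPM in the controls and 133.43 and 127.21 TPM in the knockouts (log2 fold change -0.71, SE 0.14, DESeq2 adjusted p = 0.00263). Bmp4 and Lefty1 had log2 fold changes of -0.5 and -0.44 with DESeq2 adjusted p-values of 0.235 and 0.325. Id2 and Id3, related targets, overlapped between the genotypes. Of the Fgf feedback genes Dusp6 and Spred1 were lower at an unadjusted p under 0.05, among 9 with a median of -0.18, against the same 5.34%.

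The p53 list leaned towards higher values in the knockouts. Of 13 genes 9 were higher without overlap and 5 had an unadjusted edgeR p under 0.05, against the 28.8% and 5.76% of all genes, although the median log2 fold change was no more than 0.21. Trp53inp1, a stress-induced p53 target, stood at 26.15 and 29.41 TPM in the controls and 42.29 and 49.75 TPM in the knockouts (0.68, SE 0.11, DESeq2 adjusted p = 0.000268). The cell cycle inhibitor gene Cdkn1a stood at 45.95 and 51.37 TPM in the controls and 67.86 and 93.2 TPM in the knockouts (0.68, SE 0.16, DESeq2 adjusted p = 0.0227). Mdm2, which turns p53 over, and Ccng1, encoding cyclin G1, had log2 fold changes of 0.58 and 0.44 (DESeq2 adjusted p = 0.00229 and 0.00655). Sesn2 was the remaining one, at 0.3 (DESeq2 adjusted p = 0.21), and Trp53 itself had a log2 fold change of -0.14. These 5 genes were chosen after their values were seen, and all stayed under 2-fold. C17, with the most feeder marker RNA, read highest in Trp53inp1 and Cdkn1a, and the part of feeder RNA in this list was not tested. Without C17, C9 was above both controls in 9 of the 13 and below both in 2, against 40.2% and 30.4% of all genes, and the median was 0.12. At day 3 Cdkn1a and Trp53inp1 were again higher in all d3ko libraries, while Mdm2, Ccng1 and Sesn2 overlapped.

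In the stress list 3 of 11 genes (Ddit3, Fos and Atf3) were higher and 1 (Ier2) lower at an unadjusted p under 0.05, against 5.76% and 5.34% of all genes. Atf3 had a log2 fold change of 0.77 and Ier2 of -0.26, with DESeq2 adjusted p-values of 0.713 and 0.501. Fos read 13.12 and 8 TPM in the controls against 22.19 and 19.23 TPM (0.93, SE 0.24, DESeq2 adjusted p = 0.0715), whereas its partner gene Junb overlapped. Among 13 germline genes held silent by methylation in other cells, Sycp3 of the meiotic chromosome axis read 5.77, 5.29, 11.23 and 15.76 TPM in C59, C63, C9 and C17 (1.24, SE 0.25, DESeq2 adjusted p = 0.0586). Sycp3, Taf7l and Dazl were the 3 of that list with an unadjusted p under 0.05, all higher, against 5.76% of all genes, and the list's median was 0.39. The methylation machinery differed little, with a median of -0.07 over 10 genes, and Dnmt3l at 684.72 to 751.96 TPM in all 4 libraries.

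Zscan4 genes, which mark a transient state of ESCs akin to the 2-cell embryo, are near-identical copies whose reads RSEM shares out, so their sum is the safer figure. The sum over 6 members was 6.22 and 6.78 TPM in the controls, 11.09 TPM in C9 and 19.73 TPM in C17. In this sum both knockout clones were above both controls, as were 28.8% of all genes, with C17 highest as for the feeder markers. The sum of the Tcstv genes, also of this state, was 0.1 and 0.79 TPM in the controls against 1.99 and 1.38 TPM in C9 and C17. That of the Usp17l genes overlapped, at 0.75 and 1.72 TPM against 1.59 and 3.84 TPM. Without C17 the median log2 fold change of the 4 tested Zscan4 genes was 0.73. With all libraries it was 1.33, with edgeR adjusted p-values of 0.406 to 0.484. The filter in part fixed these medians. Zscan4a, with 15 and 12 reads in the controls, passed it only through the knockout clones. Zscan4e (20, 10, 17 and 0 reads in C59, C63, C9 and C17) and Zscan4b (0, 0, 0 and 25) fell under it.

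**Figure D4:**
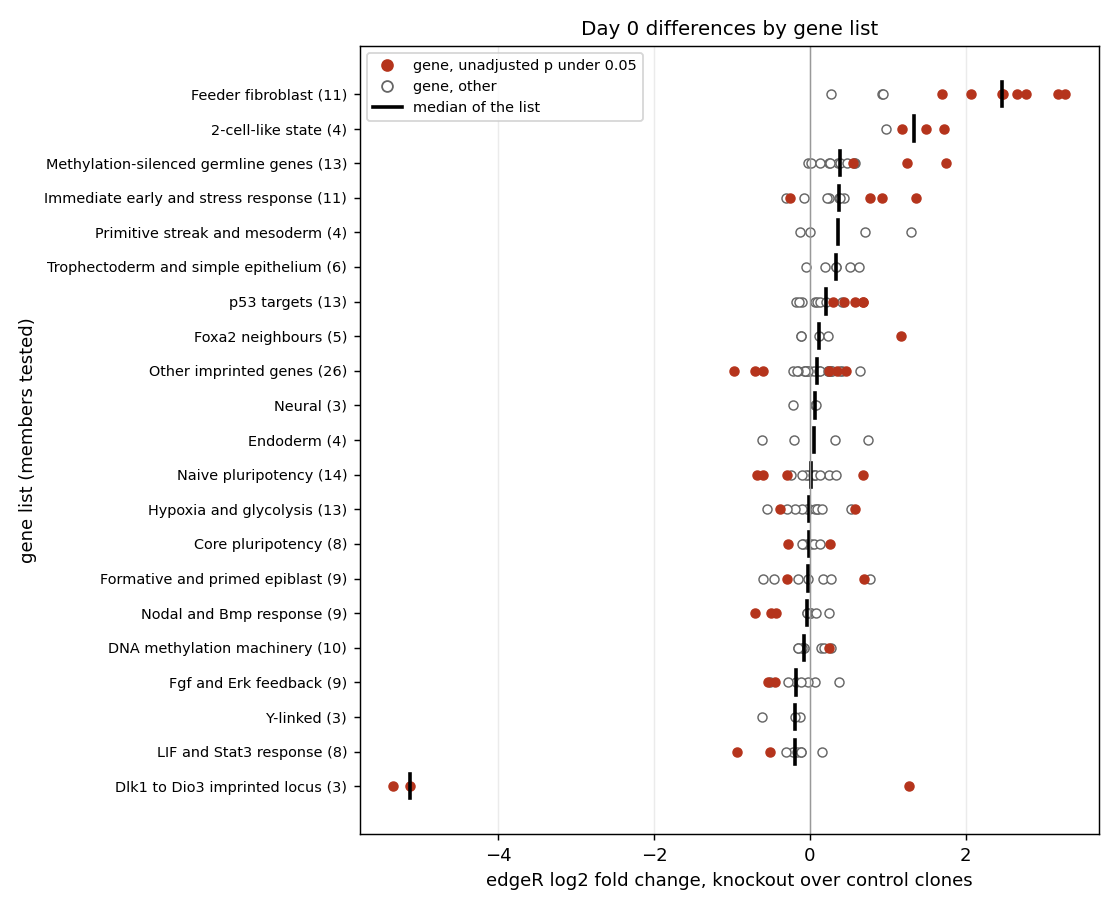
edgeR log2 fold change of d0ko over d0con for every tested member of each gene list (points, filled where the unadjusted p was under 0.05) with the median of the list (bar). The feeder list lay farthest to the right with a median of 2.46, and the pluripotency lists were centred on 0.

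Beyond the Dlk1 to Dio3 locus, the tested imprinted genes that differed by genotype did so by less than 2-fold. H19, Usp29 and Rasgrf1 fell under the filter, with 29 reads or fewer a library, and had log2 fold changes of 2.34, 1.52 and 3.54. Cdkn1c, a growth inhibitor expressed from the maternal allele, read 53.06 and 33.41 TPM in the controls and 22.71 and 22.62 TPM in the knockouts (log2 fold change -0.97, SE 0.21, DESeq2 adjusted p = 0.00704). Phlda2, its neighbour in the same imprinted cluster, read 177.72 and 151 TPM in the controls and 117.8 and 105.9 TPM in the knockouts (-0.6, SE 0.12, DESeq2 adjusted p = 0.0205). Nnat was at 23.6 and 23.83 TPM in the controls and 11.61 and 18.24 TPM in the knockouts (-0.71, SE 0.22, DESeq2 adjusted p = 0.329). At day 3 Cdkn1c and Phlda2 overlapped between the genotypes, with log2 fold changes of 0.57 and 0.9. Nnat was lower in every d3ko library than in any d3con library (log2 fold change -2.27, edgeR adjusted p = 0.0337). The 26 tested genes of this list had a median of 0.09, with 3 higher and 3 lower at an unadjusted p under 0.05, against 5.76% and 5.34% of all genes. The 3 lower are those above, and the 3 higher were Kcnq1ot1, Igf2r and Peg10, with log2 fold changes of 0.46, 0.35 and 0.24.

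Pairs of clones within a genotype differed by numbers of genes that overlapped those across genotypes. C59 and C63, of the same genotype, differed more than 2-fold in 411 genes (3.31%), and C9 and C17 in 276 (2.22%). Across genotypes the counts were 339 for C59 and C9 (2.73%), 367 for C63 and C9 (2.96%), 460 for C63 and C17 (3.71%) and 628 for C59 and C17 (5.06%). Thus C9 was closer to each control clone than the control clones were to each other, by this count. The r across genes ranged from 0.978 to 0.988. Each of these is 1 library against 1, with no test.

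Genes that set 1 clone more than 2-fold apart from the other 3 were fewest for C9, with 4 higher (0.0322%) and 12 lower (0.0967%). C59 had 22 higher (0.177%) and 67 lower (0.54%). C63 had 3 higher (0.0242%) and 80 lower (0.645%), and C17 had 77 higher (0.621%) and 19 lower (0.153%).

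Mest (30733506 to 30748466 on chromosome 6), a paternally expressed gene, was the clearest mark of C63. It stood at 57.43 TPM in C59, 41.21 TPM in C9 and 52.21 TPM in C17 but 0.52 TPM in C63, where 13 reads were counted against 1501 to 1699 elsewhere. At day 3 the C63 library again read 1.2 TPM, against 198.53 and 184.01 TPM in the C59 libraries and 26.92 to 207.8 TPM in d3ko. The difference of C63 from C59 at day 3 was -7.34 on the log2 CPM scale. A comparison by genotype would miss this gene, as its log2 fold change was 0.64 with an SE of 1.25.

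The other 4 of the 5 leading lower genes of C63, chosen by rank, are known as interferon-inducible. Ifi27 read 18.82, 0.34, 6.35 and 13.7 TPM in C59, C63, C9 and C17, and the antiviral enzyme gene Oas1g 12.56, 1.72, 11.23 and 15.32 TPM. The related Oas1a and the GTPase gene Irgm1 were lowest in C63 too, at 8.53 and 10.1 TPM. At day 3 Ifi27 was again lowest in C63, at 3.3 TPM against 17.49 and 3.67 TPM in C59. Irgm1 had the opposite order of these clones, at 35.24 TPM in C63 and 4.87 and 7.18 TPM in C59. Oas1a had that order too, at 4.06 TPM in C63 against 0.41 and 0.5 TPM (log2 CPM difference 2.87). Oas1g was near 0 in both clones, at 0.32 TPM in C63 against 0 and 0.08 TPM. Its log2 CPM difference of 1.79 therefore rests on few reads.

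C17 was set apart on the low side by the Y-linked genes, which encode housekeeping factors in male cells. Eif2s3y read 67.26 TPM in C59, 47.33 in C63 and 97.63 in C9 but 8.86 TPM in C17. Uty, a histone demethylase gene, read 9.79, 8.4, 11.53 and 0.53 TPM, and the RNA helicase gene Ddx3y 7.75, 7.38, 12.01 and 1.43 TPM in the same order. All 3 genes were thus lowest in C17 and highest in C9, which has the same genotype. At day 3 the C17 library had 3.58 TPM of Eif2s3y, against 88.82 and 93.6 TPM in C9 and 45.77 to 105.49 TPM in d3con. Kdm5d and Usp9y, also on the Y chromosome, were at 0.03 TPM or less in all 4 day 0 libraries.

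**Figure D5:**
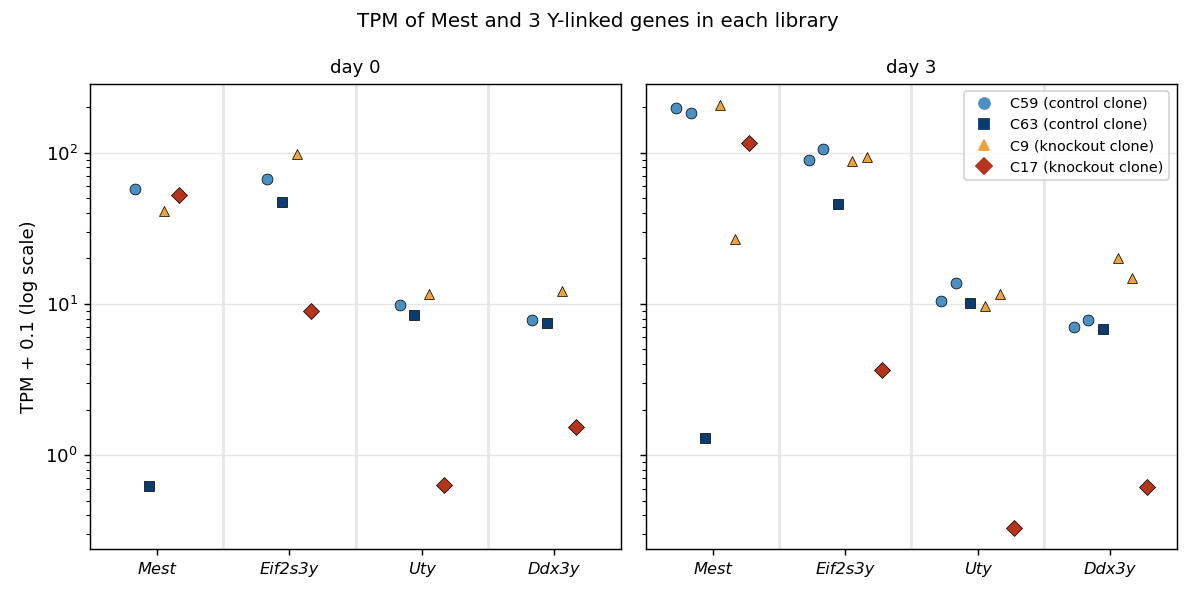
TPM of Mest and of 3 Y-linked genes, with 0.1 added, on a log axis, at day 0 (left) and day 3 (right). C63 (squares) was lowest in Mest and C17 (diamonds) in the Y-linked genes on both days.

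On the high side of C17 the 5 leading genes were Lox, Postn, Serpinf1, Mmp3 and Dcn, of which Lox, Postn and Dcn are in the feeder list. Mmp3, a stromal metalloproteinase gene, read 2.76, 1.3, 3.75 and 15.13 TPM in C59, C63, C9 and C17. None of the 5 was over 2-fold higher in C17 than in C9 at day 3, where the differences ran from -2.15 to 0.02 on the log2 scale.

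Some genes listed at 0 in 1 clone have near-identical copies among which RSEM shares reads, and how the reads were assigned was not tested. Cphx1, a homeobox gene of the early embryo, was listed at 0 in C17 and at 5.55 to 7.8 TPM elsewhere, while its copy Cphx2 was at 5.86 TPM in C17 and 0 elsewhere. Their sum was 7.8, 5.55, 6.51 and 5.86 TPM in C59, C63, C9 and C17. The histone gene Hist1h2af was likewise listed at 0 in C59 and at 20.96 to 33.27 TPM in the other clones, and the sum over 13 genes of its family was 1346.17 to 1723.54 TPM, too large to show where these reads were assigned. Tmem254c, which was highest in C59 (12.56 TPM), has 2 such copies, of which Tmem254b alone read 95.83 to 127.59 TPM. The sum of the 3 was 100.28 to 141.25 TPM, highest in C59, and is likewise too large to show where these reads were assigned.

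By chromosome, the genes of C59 on chromosome 14 stood out. Their median was 0.22 above the mean of the other 3 libraries on the log2 scale, over 305 genes of which 90.2% were above 0, while the other autosomes ranged from -0.07 to 0.03. In the comparison by genotype chromosome 14 had a median of -0.15, with 23.8% of its genes above 0 and the other autosomes at -0.05 to 0.05. Klf5 and Bmp4, which read lower in d0ko, lie on it, as do Anxa8 and Otx2, which read higher. The shift of C59 was not seen in the day 3 libraries, where C63 and C59 differed by a median of 0 on this chromosome. Chromosome 8 of C17 had a median of -0.07 against C9 at day 0, with the other autosomes at -0.04 to 0.04, and of -0.43 against C9 at day 3, with the others at -0.02 to 0.07. Genes of the X chromosome had medians of -0.09 in C59, -0.02 in C63, 0.02 in C9 and 0.07 in C17. In C17 the autosomes apart from chromosome 14 ran from -0.07 to 0.05, so X lay just outside this range in C59 and C17. At day 3 X was at 0.23 in C17 against C9, with 64.8% of its genes above 0. By genotype at day 0 X was at 0.08, with 72.1% of its genes above 0.

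Across all 12408 genes, the day 0 difference of the genotypes and that of day 3 had an r of 0.108 across genes, which are not independent. Of 228 genes more than 2-fold apart by genotype at day 0, 143 (62.7%) had the same sign at day 3, against 54% of all genes. For the control clones the r was -0.0175 and for the knockout clones 0.0606. Meg3, Rian, Mest and the Y-linked genes were among the day 0 differences that reappeared in the later libraries of the same clones.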

How the data were processed

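RNA of 14 mouse libraries was sequenced after low-input amplification, and the 4 day 0 libraries were fitted here. The authors aligned reads to mm10 with STAR and quantified each library with RSEM (versions are not given in the sources used here), and deposited expected counts per gene, which are unscaled, and TPM, scaled for gene length and library total. RSEM shares reads among similar genes. Groups follow the titles and clone names the names of the deposited tables.

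Expected counts were rounded, scaled with TMM and tested with edgeR 4.0.16 (quasi-likelihood F test, R 4.3.3) for genes with at least 1 CPM in at least 2 of the 4 libraries, with Benjamini-Hochberg adjustment over all of them. Changed meant more than 2-fold apart at an adjusted p under 0.05. Fold changes are d0ko over d0con, and SE is the fold change divided by the square root of F. Genes under the filter were taken from a fit without it. DESeq2 1.42.0, used by the authors, and limma 3.58.1 were alternatives, with leave-one-out fits. Scripts were tested on simulated data. Pairs of libraries and chromosomes were compared in log2 CPM (prior count 2), the latter for genes averaging 200 counts or more.

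Members and gene lists were chosen with earlier results of these data known. Named were Foxa2, pluripotency, Y-linked and Dlk1 to Dio3 genes, up to 12 genes a direction with the smallest p (over 2-fold, groups apart, 5 TPM or more, no predicted gene models), genes called by DESeq2, list members and up to 5 genes a direction for each clone. RefSeq positions and promoters (GRCm38.p6) matched 99.3% of 24054 symbols.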

Additional observations from a re-analysis of the deposited data

Results flagged for a closer look

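The genotypes lay apart in opposite directions at day 0 and day 3, every library included, in 11 genes of the lists or DESeq2 calls. Counted were genes with an unadjusted edgeR p under 0.05 at day 0, which left out members such as Cdh2 and Krt18. Of all genes, 28.8% lay apart as higher and 15.9% as lower at day 0, and 12.3% and 11.1% at day 3. The share of all genes apart in opposite directions was not counted, so the 11 are examples only. The interaction of genotype and day was tested on 10 libraries in edgeR (quasi-likelihood), and none of the 11 passed adjustment. In Timp3 the log2 fold change was 1.38 at day 0 and -1.39 at day 3 (interaction -2.76, SE 0.48, edgeR adjusted p = 0.124), and in Aldh1l1 1.42 and -1.28 (-2.7, SE 0.46, 0.122). In Bhlhe41 it was 2.42 and -1.14 (-3.57, SE 0.75, edgeR adjusted p = 0.153). In Nkx6-2 it was -1.37 and 3.45 (4.81, SE 0.95, edgeR adjusted p = 0.129). The pluripotency genes Utf1 (-0.28 and 3.29), Klf2 (-0.29 and 3.97), Nr0b1 (-0.68 and 4.69) and Gbx2 (-0.94 and 4.35) were lower in d0ko and higher in d3ko, with edgeR adjusted p-values of the interaction of 0.153 to 0.178. Bmp4 had the same order (-0.5 and 2.49, edgeR adjusted p = 0.153). Otx2, a factor of the primed epiblast, had the reverse order (0.7 and -2.19, edgeR adjusted p = 0.178), as did Igf2r (0.35 and -0.24, edgeR adjusted p = 0.309). The day 3 groups were sorted for Venus and the day 0 groups were not, so sorting and day cannot be told apart here.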

How the results depend on the processing

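With 2 clones a group, calls depended on the model. edgeR called 0 genes higher and 0 lower, also with RLE scaling, glmTreat, an adjusted p under 0.10, a mean count of at least 50 or the fit of 10 libraries, as did limma on log2(TPM + 1). DESeq2 called 27 and 5, DESeq2 against a 2-fold change 0 and 1, the exact test of edgeR 62 and 6, and edgeR without a filter 12 and 4. At an unadjusted p under 0.05 there were 715 and 662, counted after seeing the data. With the replicate number as a block 2 genes were higher (Col3a1 and Fabp3) and 0 lower, while the deviations from the group means had an r of 0.15 between libraries of 1 number, so with 2 pairs the samples share only a number. Leaving out 1 library gave 0 to 10 higher and 0 to 3 lower genes with edgeR, the most without C9. With DESeq2, chosen after seeing the data, it gave 1 to 40 higher (15 without C59, 20 without C63, 40 without C9, 1 without C17) and 1 to 20 lower (1, 20, 16 and 2). A group left with 1 library was assumed to vary like the other group. Meg3 passed edgeR's threshold without C59, C9 or C17 and missed it without C63 (adjusted p = 0.0975), whereas DESeq2 lost it without C59 (0.422) and without C63 (0.307). The feeder median was 1.16 to 3.08, lowest without C17. Signs of genes near 0 turned on leaving out a library, over ranges of -0.21 to 0.05 for Sox2, -0.03 to 0.6 for Klf4, -0.06 to 0.15 for Dppa5a, -2.46 to 0.64 for Ddx3y, -2.75 to 0.74 for Eif2s3y and -4.17 to 0.32 for Uty. Counts of genes over 2-fold apart fell with a mean count of at least 50 to 194 (C59 and C63), 161 (C59 and C9), 359 (C59 and C17), 155 (C63 and C9), 239 (C63 and C17) and 146 (C9 and C17). On log2(TPM + 1) they were 114, 85, 274, 86, 185 and 98 in that order. In both, fewer low genes entered or counted. Chromosome medians, day 3 correlations and the direction of the other genes named, Foxa2 included, did not change under their alternatives. Levels under 1 TPM rest on few reads.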
